A study of Homo sapiens with 4 samples.

Results

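The miR-143 and miR-145 cluster was followed in the extracellular vesicles (EVs) released by MDA-MB-231 cells. This established line came from a human triple-negative breast cancer, and the labels call it epithelial and wild type. Its members were taken by name as the count rows of hsa-miR-143-3p, hsa-miR-145-5p and hsa-miR-145-3p, which are 3 of the 539 mature miRNAs listed for all libraries. The cluster had been chosen by its measured values in 231 -G EV against 231 EV, so its values in that comparison are given as a description, with no test. Small RNA was sequenced from 4 libraries in 2 groups of 2. All cells were grown in DMEM with 10% fetal bovine serum. For the group 231 EV they then spent 12 h in DMEM freed of EVs, and for the group 231 -G EV 12 h in medium without glucose, before EVs were pelleted from the medium by ultracentrifugation. Both libraries numbered 1 were built from RNA pretreated to remove modifications that hinder adapter ligation and reverse transcription, and held inserts of 14 to 40 nt. Those numbered 2 came from an NEBNext small RNA kit. This difference is taken from the labels, whereas the study's methods describe the NEBNext kit alone. Each replicate number therefore names a pair of libraries, 1 of each medium, and preparation and replicate cannot be told apart. All 4 libraries come from 1 cell line, and nothing in the labels says that the replicates were separate cultures, so p-values measure only the spread between these libraries.

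MiR-143 and miR-145 are made from a shared primary transcript. Drosha and Dicer cut each hairpin to a short duplex, from which 1 strand is usually kept by an Argonaute protein while the partner strand is degraded. The pair is best known from smooth muscle cells, fibroblasts and other mesenchymal cells, where serum response factor and its cofactor myocardin drive the transcript. In breast and other epithelial cells the levels are usually low, and the pair has often been studied as low in tumours. A miRNA recognises its targets mainly through its seed, bases 2 to 8 from the 5′ end.

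The mature strands are shown because the members of this cluster share a transcript and not a seed. All 3 members were matched in the RefSeq table (GRCh38.p14), and hsa-miR-143-5p, the partner strand of hsa-miR-143-3p, was added. Capitals mark the seed.
hsa-miR-143-5p: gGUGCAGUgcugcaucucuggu
hsa-miR-143-3p: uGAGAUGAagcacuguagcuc
hsa-miR-145-5p: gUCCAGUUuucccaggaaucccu
hsa-miR-145-3p: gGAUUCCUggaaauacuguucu
The strand hsa-miR-143-3p is 21 nt long and hsa-miR-145-5p is 23 nt, and their longest shared run is 3 bases. Among the 2370 mature miRNAs of the RefSeq table, the seed of hsa-miR-143-3p was also found in these sequences of chromosomes 19 and X, printed to show how far the likeness goes beyond the seed.
hsa-miR-6088: aGAGAUGAagcgggggggcg
hsa-miR-4770: uGAGAUGAcacuguagcu
Both were listed for replicate 1 alone. There hsa-miR-6088 had 0 reads in 231 EV and 2 in 231 -G EV, and hsa-miR-4770 had 0 in both, against 447 and 210 reads of hsa-miR-143-3p.

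The hairpins lie on the plus strand of chromosome 5 in GRCh38, the assembly that the submitters' processing notes call hg38. MIR143 is at chr5:149428918-149429023 and MIR145 at chr5:149430646-149430733, with 1622 bases between them. Within them, hsa-miR-143-3p is at chr5:149428978-149428998, hsa-miR-145-5p at chr5:149430661-149430683 and hsa-miR-145-3p at chr5:149430699-149430720. In GENCODE v29 both lie in CARMN, a long intergenic non-coding RNA gene at chr5:149406689-149432835. A single one of its 12 transcripts, CARMN-209 with 5 exons, spans both, with MIR143 inside exon 4 and MIR145 inside intron 4. The hairpins show which arm each counted strand comes from. Capitals mark the mature strands, the 5p strand first.
MIR143: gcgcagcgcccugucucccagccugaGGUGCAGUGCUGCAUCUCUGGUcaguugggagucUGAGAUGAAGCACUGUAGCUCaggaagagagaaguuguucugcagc
MIR145: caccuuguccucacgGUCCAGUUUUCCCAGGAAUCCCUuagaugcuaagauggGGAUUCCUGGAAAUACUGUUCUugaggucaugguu

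The libraries differed in depth. Totals were 18397 reads in 231 EV and 15597 in 231 -G EV of replicate 1, against 224966 and 170894 in replicate 2. Levels are given as CPM, the reads of a miRNA per 1000000 miRNA reads of its library. A single read stood for 54.4 CPM in 231 EV replicate 1 and 64.1 CPM in 231 -G EV replicate 1. In replicate 2 it stood for 4.45 and 5.85 CPM. In 231 EV replicate 1, hsa-miR-182-5p alone held 51.0% of the reads, against 2.73% in 231 -G EV replicate 1 and at most 0.254% in replicate 2. Every CPM value of 231 EV replicate 1 was measured beside that miRNA. Hsa-miR-451a held 194434 CPM in 231 EV replicate 1 and 408027 CPM in 231 -G EV replicate 1, against 1311 and 398 CPM in replicate 2. Every CPM value of replicate 1 was thus also measured beside hsa-miR-451a, and totals without hsa-miR-451a were not tried. Amplified reads that carry no molecular identifier cannot be taken as separate molecules, so the 95% Wilson intervals of levels and the exact conditional intervals of ratios cover counting error only.

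The strand kept from MIR143, hsa-miR-143-3p, was the abundant member in every library. In replicate 1 it had 447 reads in 231 EV, or 24297 CPM (22170 to 26624), and 210 reads in 231 -G EV, or 13464 CPM (11772 to 15396). In replicate 2 it had 469 reads in 231 EV, or 2085 CPM (1905 to 2282), and 172 reads in 231 -G EV, or 1006 CPM (867 to 1168). By reads it was the 4th miRNA of 231 EV replicate 1, the 11th of 231 -G EV replicate 1, the 50th of 231 EV replicate 2 and the 72nd of 231 -G EV replicate 2. Both replicate 1 libraries lay above both replicate 2 libraries, and within each replicate 231 -G EV lay below 231 EV. The intervals of neighbours in this order did not overlap.

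The strand kept from MIR145, hsa-miR-145-5p, had few reads, and in replicate 1 it was close to the limit of detection. In replicate 1 it had 1 read in 231 EV, or 54.4 CPM (9.60 to 308), and 4 reads in 231 -G EV, or 256 CPM (99.7 to 659). In replicate 2 it had 22 reads in 231 EV, or 97.8 CPM (64.6 to 148), and 10 reads in 231 -G EV, or 58.5 CPM (31.8 to 108). The level was highest in 231 -G EV replicate 1 and lowest in 231 EV replicate 1, and the intervals of each neighbour in this order overlapped. With hsa-miR-182-5p excluded from the totals, 231 EV replicate 1 came to 111 CPM and was no longer the lowest.

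The partner strands were rare or not seen. Hsa-miR-145-3p had 0 reads in all 4 libraries, which allows up to 163 and 192 CPM in the replicate 1 libraries of 231 EV and 231 -G EV, and up to 13.3 and 17.6 CPM in those of replicate 2. Set against the 22 reads of hsa-miR-145-5p in 231 EV replicate 2, a count of 0 allows the 3p strand up to 13.6% of that number, and in 231 -G EV replicate 2, with 10 reads, up to 30%. With 1 and 4 reads of hsa-miR-145-5p, replicate 1 sets no useful limit on the strand ratio. Hsa-miR-143-5p had 6 reads in 231 EV replicate 2, or 26.7 CPM (12.2 to 58.2), and 0 reads in the other libraries. These 6 reads were 1.26% (0.580 to 2.73) of the reads from both strands of miR-143 in that library. The strand that each hairpin is best known for was therefore the one counted wherever miR-143 or miR-145 was seen in number.

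**Figure D1:**
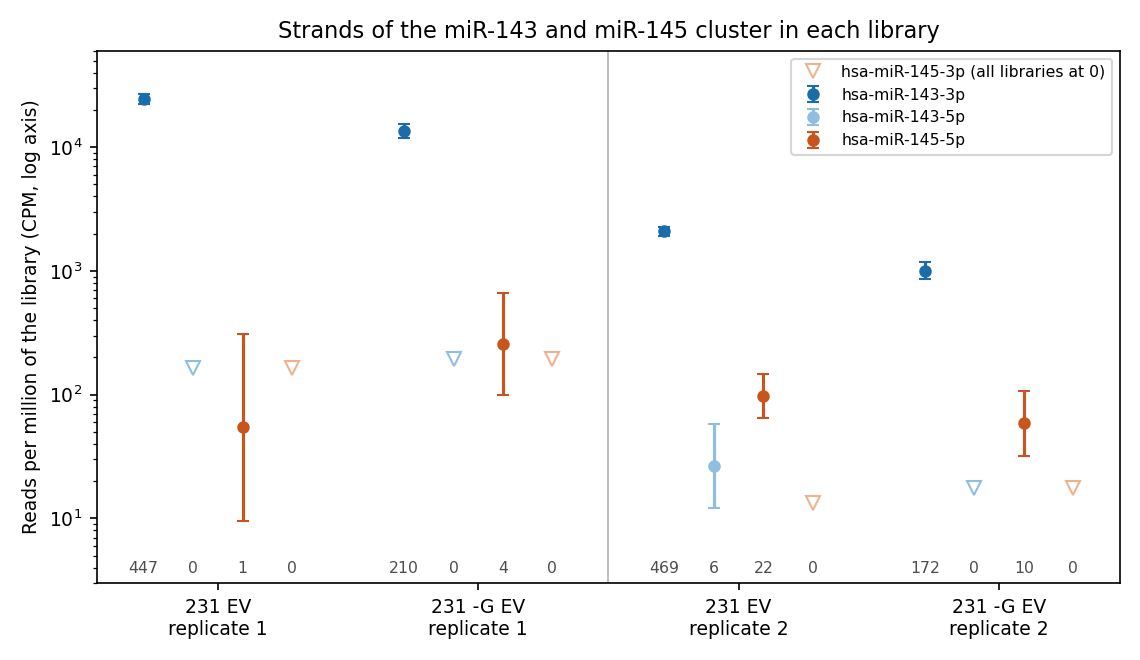
Level of each mature strand of the cluster in each library, as CPM on a log axis. Points are single libraries with 95% Wilson intervals, open triangles mark the level that 3 reads would give where the count was 0, and the read counts stand along the bottom. Hsa-miR-143-3p runs from 24297 CPM in 231 EV replicate 1 to 1006 CPM in 231 -G EV replicate 2, while hsa-miR-145-5p stays between 54.4 and 256 CPM with wide intervals.

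Whether the partners fell together in the EVs of cells without glucose was asked within each replicate number, by the ratio of CPM in 231 -G EV over 231 EV. In such bulk libraries, fewer EVs that carry a miRNA and less of it in each EV cannot be told apart. For hsa-miR-143-3p the ratio was 0.554 (0.468 to 0.654) in replicate 1 and 0.483 (0.403 to 0.576) in replicate 2. Its level was therefore 1.80-fold and 2.07-fold lower in 231 -G EV, a mean log2 ratio of -0.95 ± 0.14 (SD, n = 2 pairs). For hsa-miR-145-5p the ratio was 4.72 (0.467 to 232) in replicate 1 and 0.598 (0.253 to 1.32) in replicate 2, a mean log2 ratio of 0.75 ± 2.11 (SD, n = 2 pairs). The pairs thus went opposite ways for hsa-miR-145-5p, and both intervals included 1. For hsa-miR-145-3p no ratio could be formed. Of the 3 members, 1 was lower in both pairs, 1 was lower in a single pair and 1 was never read.

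The same ratios were placed among the 154 miRNAs that were above 0 in all 4 libraries. The median log2 ratio of these was 0.66 in replicate 1 and -0.03 in replicate 2, and 41 of 154 and 79 of 154 were lower in 231 -G EV. With hsa-miR-182-5p taken from the totals, 93 of 154 were lower in replicate 1, while 79 of 154 were in replicate 2. Counted from the lowest ratio, hsa-miR-143-3p ranked 10 of 154 in replicate 1 and 19 of 154 in replicate 2. The corresponding ranks of hsa-miR-145-5p were 141 of 154 and 33 of 154. In the edgeR quasi-likelihood test with the replicate number as a block, 0 of 384 miRNAs passed an adjusted p under 0.05 with an absolute log2 fold change above 1, a background of 0%, and 5 had an unadjusted p under 0.05. DESeq2 and limma also made 0 calls. Of the 3 members 2 had enough reads to enter that fit and 0 of these 2 were called. Nothing is read from this count, since the members were selected on this comparison.

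The size of the difference in hsa-miR-143-3p depended on the scaling, and most of all in replicate 1. With totals that exclude the reads of hsa-miR-182-5p, its level in 231 EV replicate 1 became 49568 CPM against 13842 CPM in 231 -G EV, a ratio of 0.279, while the ratio of replicate 2 stayed at 0.483. With TMM factors, which scale libraries by a trimmed mean of ratios over miRNAs, the ratios were 0.309 and 0.455. Relative to hsa-miR-16-5p, an RT-qPCR reference in the study, as was U6, they were 0.822 (0.530 to 1.29) and 0.306 (0.255 to 0.366). Hsa-miR-16-5p itself had 70 and 40 reads in replicate 1, a ratio of 0.674 (0.445 to 1.01), and 15834 and 18955 reads in replicate 2, a ratio of 1.58 (1.54 to 1.61). The direction for hsa-miR-143-3p was the same under each of these scalings in both pairs, although relative to hsa-miR-16-5p the interval of replicate 1 included 1. For hsa-miR-145-5p the ratio stayed above 1 in replicate 1, at 2.63 with TMM factors, 2.38 without hsa-miR-182-5p and 7 relative to hsa-miR-16-5p. In replicate 2 it stayed below 1, at 0.564, 0.598 and 0.380 (0.160 to 0.836) in the same order.

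**Figure D2:**
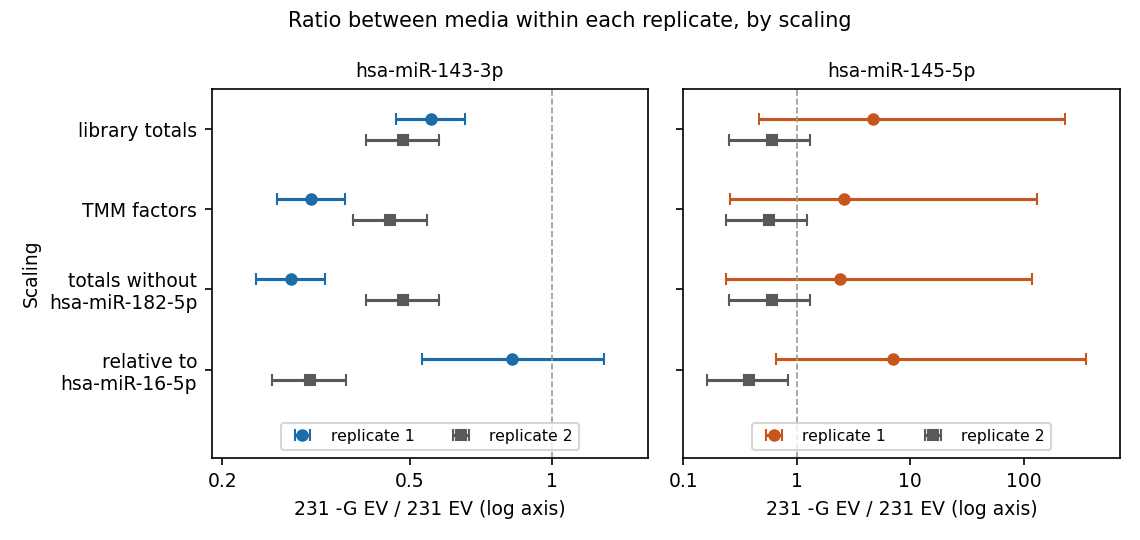
Ratio of 231 -G EV over 231 EV within each replicate on a log axis, for hsa-miR-143-3p (left) and hsa-miR-145-5p (right) under 4 scalings. Points are single pairs of libraries with 95% exact conditional intervals of counting error, circles are replicate 1, squares are replicate 2 and the dashed line marks equal levels. Every point of hsa-miR-143-3p lies below 1, from 0.279 to 0.822, whereas hsa-miR-145-5p lies above 1 in replicate 1 and below 1 in replicate 2.

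The balance between the partners does not depend on how libraries are scaled, since both are counted in the same library. Of the 448 reads of the cluster in 231 EV replicate 1, 0.223% (0.0394 to 1.25) were hsa-miR-145-5p. The share was 1.87% (0.729 to 4.71) of 214 reads in 231 -G EV replicate 1. In replicate 2 it was 4.48% (2.98 to 6.69) of 491 reads in 231 EV and in 231 -G EV 5.49% (3.01 to 9.82), from 172 reads of hsa-miR-143-3p and 10 of hsa-miR-145-5p. Between the media, the ratio of hsa-miR-145-5p to hsa-miR-143-3p was 8.49 (0.833 to 420) times that of 231 EV in replicate 1 and 1.24 (0.513 to 2.79) times in replicate 2. Both intervals included 1, so that in replicate 2 an equal balance and one up to 2.79 times higher without glucose both lay within counting error. The summed level of the cluster followed hsa-miR-143-3p, at 24352 and 13721 CPM in 231 EV and 231 -G EV from replicate 1, and 2183 and 1065 CPM in those of replicate 2.

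**Figure D3:**
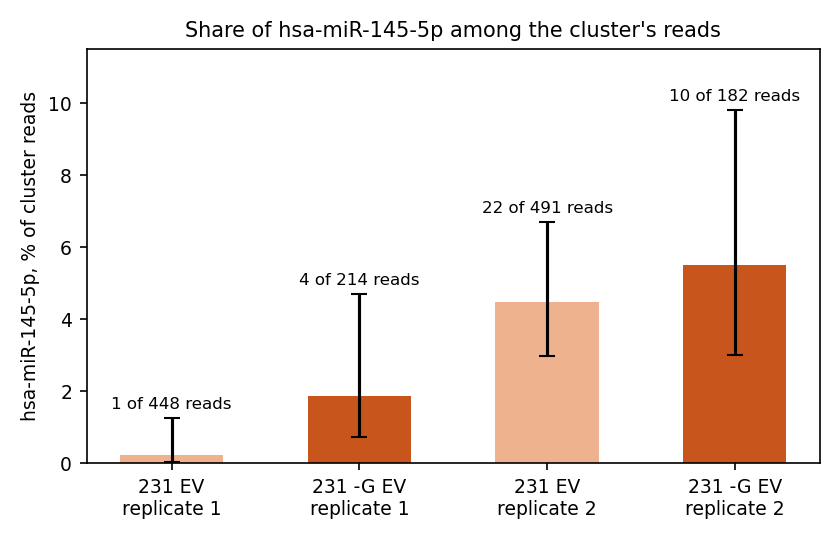
Share of hsa-miR-145-5p among the reads of the cluster's 3 members, in percent, in each library. Bars are single libraries with 95% Wilson intervals, pale for 231 EV and dark for 231 -G EV, and the reads behind each share stand above it. The shares are 0.223% and 1.87% in replicate 1 and 4.48% and 5.49% in replicate 2.

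The balance was also compared between the replicates. In 231 EV, the ratio of hsa-miR-145-5p to hsa-miR-143-3p in replicate 2 was 20.9 (3.35 to 867) times that of replicate 1, and this interval left out 1. In 231 -G EV it was 3.04 (0.859 to 13.5) times. At the balance of replicate 2, 231 EV replicate 1 would have held 20.97 reads of hsa-miR-145-5p and 231 -G EV replicate 1 would have held 12.2, against the 1 and 4 observed. At the library share of replicate 2 in place of the balance, they would have held 1.80 and 0.913 reads.

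Replicate number was not used to choose the members, so the contrast of replicate 2 against replicate 1 could be tested. Hsa-miR-143-3p was lower in replicate 2, by 11.7-fold (10.2 to 13.3) in 231 EV and by 13.4-fold (10.9 to 16.5) in 231 -G EV. With totals that exclude hsa-miR-182-5p, these became 23.7-fold and 13.7-fold. The edgeR quasi-likelihood test, with medium as a term, gave it a log2 fold change of -3.64 (SE 0.94, adjusted p = 0.00194, 2 libraries a side), beside a median of 0.75 over the 384 miRNAs tested. Hsa-miR-145-5p had a log2 fold change of -0.87 (SE 1.59, adjusted p = 0.790) in the same edgeR test, and its ratios of replicate 2 over replicate 1 were 1.80 (0.291 to 74.2) in 231 EV and 0.228 (0.0658 to 0.997) in 231 -G EV. Under the same change of totals, its level in 231 EV was 1.13-fold lower in replicate 2 instead of higher. Among all miRNAs tested 66 of 384 were called, a background of 17.2%, and 29 of 384 were called lower in replicate 2, a background of 7.55%. Of the 2 members tested, 1 was called, in the lower direction, and among the 29 lower calls it had the 24th lowest log2 fold change. With limma the log2 fold change was also -3.64, at an adjusted p = 0.103, and limma called 0 of the 384 miRNAs. Leaving out a library left no room for the medium term. In such edgeR fits, with a single library for replicate 2 that is assumed to vary like the others, the call was lost without 231 EV replicate 2 (log2 fold change -4.23, adjusted p = 0.164) and without 231 -G EV replicate 2 (-3.18, adjusted p = 0.285). Whether hsa-miR-145-5p differed less between the replicates than hsa-miR-143-3p was not tested over libraries.

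The profiles nearest to that of hsa-miR-143-3p were sought among 153 other miRNAs above 0 in all 4 libraries, by the Euclidean distance of log2(CPM + 1) after subtracting each profile's own mean. The nearest were hsa-miR-323a-3p at a distance of 0.55, hsa-miR-31-5p at 0.63, hsa-miR-184 at 1.14, hsa-miR-9-5p at 1.16 and hsa-miR-127-3p at 1.23. The nearest of these rest on few reads. In the order 231 EV and 231 -G EV of replicate 1, then of replicate 2, hsa-miR-323a-3p had 2, 1, 3 and 1 reads, and hsa-miR-31-5p had 4, 1, 3 and 1. Hsa-miR-9-5p, best known from neurons, had 36, 42, 70 and 39 reads and was higher without glucose in replicate 1, at 1.38 times, and lower in replicate 2, at 0.733 times. Its ratio in replicate 1 turned to 0.693 with hsa-miR-182-5p excluded from the totals and to 0.766 with TMM factors. The cluster partner hsa-miR-145-5p was the 61st nearest, at a distance of 3.71.

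The cluster's usual cell types were set beside lists of miRNAs known from mesenchymal and other cells. A mesenchymal list of 11 held 10 that were listed for both replicates, and hsa-miR-199a-3p and hsa-miR-199b-3p in it have 1 mature sequence and identical counts. Its summed level was 4077 and 10066 CPM in 231 EV and 231 -G EV from replicate 1, and 106060 and 77738 CPM in those of replicate 2. In replicate 1, 7 of its 8 members with a read were higher in 231 -G EV, with a summed ratio of 2.47. Taking hsa-miR-182-5p from the totals left 6 of 8 higher and a summed ratio of 1.24. In replicate 2, 9 of 10 were lower, with a summed ratio of 0.733, and hsa-miR-143-5p of the cluster itself is 1 of these 9. In replicate 2 the sum was carried mostly by hsa-miR-125b-5p with 8, 5, 15058 and 8761 reads and hsa-miR-100-5p with 11, 29, 8076 and 4264, both also widely made in epithelial cells. Of its 9 tested members, 2 were called higher in replicate 2, hsa-miR-125b-5p and hsa-miR-100-5p, and 1 lower, hsa-miR-10b-5p, beside backgrounds of 9.64% higher and 7.55% lower. The summed ratio of the list thus lay above 1 in replicate 1 and below 1 in replicate 2, whereas hsa-miR-143-3p had ratios below 1 in each. Hsa-miR-125b-5p, the 1 list member lower in replicate 1 with library totals, also had ratios below 1 in each, at 0.737 and 0.766. The cells that the reads of hsa-miR-143-3p came from were not identified here.

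Several lists were lower beside hsa-miR-143-3p in replicate 2. All 9 miRNAs of a blood and serum list were lower in 231 -G EV of replicate 2, with ratios of 0.303 to 0.529 and a median of 0.398, beside 0.483 for hsa-miR-143-3p and a median log2 ratio of -0.03 over the 154 miRNAs. In the same pair hsa-miR-451a, the red cell miRNA, went from 295 to 68 reads, hsa-miR-142-3p of blood cells from 858 to 324, and hsa-miR-223-3p of myeloid cells from 502 to 158. The summed level of this list was 201718 CPM in 231 EV and 432583 CPM in 231 -G EV of replicate 1. In replicate 2 it was 12060 and 5243 CPM in the same order. In replicate 1, 7 of the 8 with a read were higher in 231 -G EV, with hsa-miR-451a at 3577 and 6364 reads, a summed ratio of 2.14. Once hsa-miR-182-5p was taken from the totals, 5 of the 8 were higher, with a summed ratio of 1.08. The endothelial strands hsa-miR-126-3p and hsa-miR-126-5p had summed ratios of 2.90 and 0.502 in replicates 1 and 2, and the first became 1.46, with 1 strand higher and 1 lower, under those totals. The epithelial list of 7, mostly the miR-200 family, is named for epithelial cells in general, and whether it marks this line was not tested. The list was read at low levels, 1141 and 5834 CPM in replicate 1 and 867 and 205 CPM in replicate 2. Its summed ratios were 5.11 and 0.236, with 5 of 7 higher in replicate 1 and 6 of 7 lower in replicate 2, and the first became 2.58 under those totals, with 5 of 7 still higher. Its leading members were hsa-miR-205-5p with 0, 1, 109 and 3 reads, hsa-miR-200a-3p with 1, 29, 36 and 12, and hsa-miR-200b-3p with 9, 42, 7 and 3. The part of any of these in the difference of hsa-miR-143-3p was not tested.

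The muscle list went the other way from hsa-miR-143-3p in replicate 1 and the same way in replicate 2. Hsa-miR-1-3p, the main miRNA of heart and skeletal muscle, had 3, 122, 14 and 4 reads, and hsa-miR-206 of skeletal muscle had 0, 98, 0 and 0. Hsa-miR-133a-3p, made with hsa-miR-1-3p, had 0, 9, 1 and 0. The summed level of the list was 163 and 14875 CPM in replicate 1 and 75.6 and 23.4 CPM in replicate 2. Reads of striated muscle miRNAs were therefore highest in 231 -G EV replicate 1. Of the tested members of the lists, 9 mesenchymal, 9 blood and serum, 2 endothelial, 7 epithelial and 3 muscle, 0 were called between the media. Hsa-miR-206 and hsa-miR-143-5p had too few libraries with reads to be tested. In the contrast of replicate 2 against replicate 1, 2 of the 9 blood and serum members were called higher and 2 lower. For the endothelial list the calls were 1 higher and 0 lower, for the epithelial list 0 and 2, and for the muscle list 0 and 1. Over all 384 miRNAs tested, the backgrounds were 9.64% higher and 7.55% lower.

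**Figure D4:**
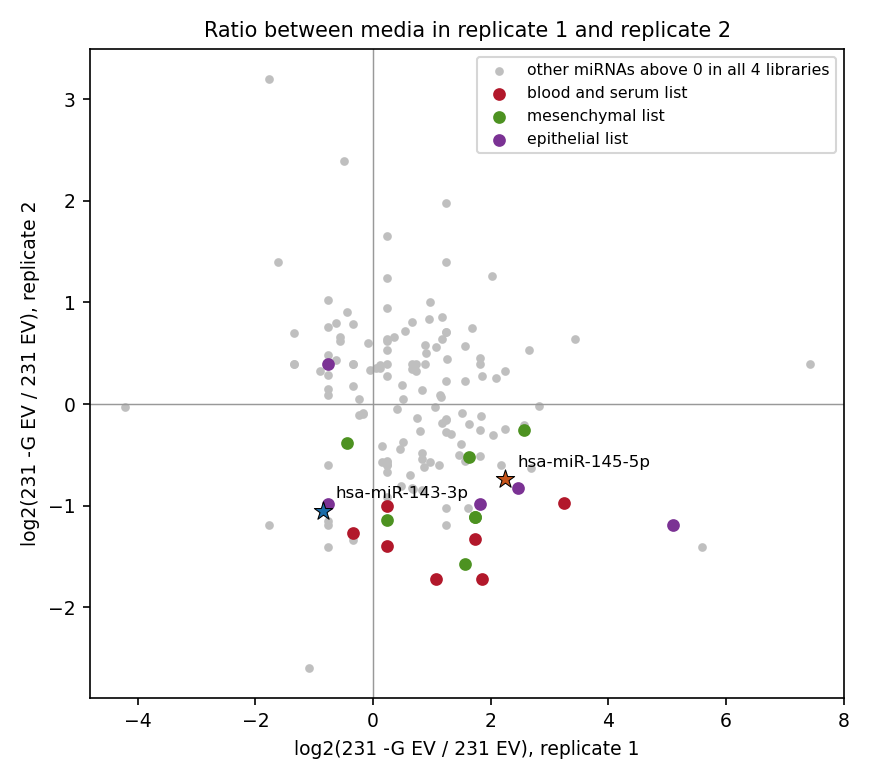
Log2 ratio of 231 -G EV over 231 EV in replicate 1 (horizontal) and replicate 2 (vertical) for the 154 miRNAs above 0 in all 4 libraries. Each point is 1 miRNA, stars mark the members, and colours mark the blood and serum, mesenchymal and epithelial lists. Hsa-miR-143-3p lies in the lower left with both log2 ratios below 0 (-0.85 and -1.05), and hsa-miR-145-5p lies in the lower right (2.24 and -0.74) among members of the lists.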

How the data were processed

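The authors deposited raw read counts per mature miRNA, as 1 table for each replicate number, beside library-scaled values that the headers call CPM or TPM. These equalled the count per 1000000 reads of the library total, with no length term, and served only for checking. Tools named in the submitters' processing notes are FastQC, cutadapt, Bowtie, Bowtie2, StringTie and edgeR with hg38. The study's methods name miRBase 21.0 and Rfam 10.1, describe 1 preparation where the labels give 2, and give the threshold used here, while the study also applied a fold threshold alone to these libraries. Replicate 1 listed 1315 miRNAs. Replicate 2 listed 843, of which 33 are predicted features, and these counted in its library totals. A total of 539 miRNAs were listed for both, and 384 of these were above 0 in at least 2 libraries and were tested.

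Counts were fitted by quasi-likelihood in edgeR 4.0.16 (under R 4.3.3), with library totals as deposited, medium and replicate number as terms, two-sided p-values and Benjamini-Hochberg adjustment. MiRNAs with adjusted p below 0.05 and a log2 fold change beyond 1 in either direction were called. Pairing came from the labels, in which the number marks the preparation. Libraries sharing a number deviated together from the group means (correlation 0.586 over 384 miRNAs), and the common dispersion was 0.301. Totals ran from 15597 to 224966 reads, and a count of 0 allows 3 reads. Shares have 95% Wilson intervals and ratios exact conditional intervals (SciPy 1.17.1). The fit was also run on simulated data, and no result here rests on that run. With so few libraries, a count of 0 calls does not show that no miRNA changed. Alternatives were TMM factors, DESeq2 1.42.0, limma 3.58.1 on log2(CPM + 1), other filters and totals, no block and leaving out each library. Sequences are from RefSeq (GRCh38.p14) and gene positions from GENCODE v29.

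Members and lists were chosen with earlier results of these data known. Named miRNAs are the members, the partner strand, those sharing a seed, the 5 nearest profiles, the 3 of each list with most reads and, where a value turned on them, hsa-miR-16-5p and hsa-miR-182-5p. Hsa-miR-10b-5p was named after its value was seen.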

Additional observations from a re-analysis of the deposited data

Results flagged for a closer look

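Hsa-miR-145-5p went opposite ways between the media in the 2 replicates. Its CPM ratio of 231 -G EV over 231 EV was 4.72 in replicate 1, from 1 and 4 reads, and 0.598 in replicate 2, from 22 and 10 reads. The difference between the pairs was not tested, and the exact conditional interval of each ratio included 1 (0.467 to 232 and 0.253 to 1.32).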

How the results depend on the processing

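Between the media, the edgeR test made 0 calls among 384 miRNAs, and 0 with no replicate block, which cannot show whether pairing matters. It made 1 call of 476 without the filter, 1 of 383 with hsa-miR-182-5p taken from the totals, and 0 without each library in turn, which left room for a single term in the fit. Between the replicates, 66 calls became 120 without the medium term and 0 with limma (37.8% of 384 at an unadjusted p under 0.05), and leaving out 1 library, also without that term and so to be set beside the 120, gave 26 to 90. The log2 fold change of hsa-miR-143-3p in that contrast lost its call with limma (-3.64) and ran from -4.23 to -3.12 with 1 library left out. Its adjusted p was 2.99e-08 to 0.00225 under the alternatives that kept the call. That of hsa-miR-145-5p ran from -1.69 to 0.53 with 1 library left out, and turned positive without 231 -G EV replicate 1 (edgeR adjusted p = 0.809). The ratio of hsa-miR-143-3p between media moved from 0.554 in replicate 1 to 0.309 with TMM factors, 0.279 without hsa-miR-182-5p and 0.822 relative to hsa-miR-16-5p, and from 0.483 in replicate 2 to 0.306 relative to hsa-miR-16-5p. The fit of all miRNAs also shifted with scaling, since 60.2% lay higher in 231 -G EV with library totals and 43.2% with TMM factors. The mean log2 ratio of hsa-miR-145-5p between media, 0.75, was -0.74 without replicate 1 and 2.24 without replicate 2. That of hsa-miR-143-3p was -1.05 and -0.85. The values of lists and of hsa-miR-9-5p without hsa-miR-182-5p and with TMM factors were added after seeing the data, and the summed list ratios above 1 in replicate 1 stayed above 1 under both. Causes were not tested. Hsa-miR-145-5p rested on 1 to 22 reads a library. Tests on all 4 libraries had 2 libraries a group, and those that left out a library had a single one on 1 side.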
